A study of Mus musculus with 16 samples.

Results

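The 32 genes described here encode the enzymes that build cholesterol, the proteins that set the pace of its synthesis and uptake, and the transporters and acyltransferases that export or store it. They were chosen by gene symbol from a list, not by their values, and all 32 were found in the deposited table of 27446 entries and had enough counts to be tested. RNA sequencing covered 16 livers of wild-type C57BL/6 mice, 8 of them after emodin, an anthraquinone of rhubarb, and 8 after the carrier only. Emodin was delivered into the stomach at 400 mg/kg over 3 weeks in 0.5% sodium carboxymethyl cellulose, and the 8 vehicle mice received that carrier without emodin. All animals had been kept for 7 days before dosing, and the labels state neither age nor sex. The labels do not say that each library is a separate animal, so p-values measure the spread between libraries, each taken as a liver.

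Cholesterol is made from acetyl-CoA through mevalonate, isoprenyl diphosphates and squalene to lanosterol, which a chain of enzymes in the endoplasmic reticulum trims and desaturates to cholesterol. The transcription factor SREBP2 turns most of these genes on. Its escort SCAP carries it to the Golgi for cleavage when sterols are scarce, and INSIG proteins hold the complex back when sterols are plentiful. When oxysterols accumulate, the nuclear receptor LXR turns on exporters such as ABCA1 and the ABCG5 and ABCG8 heterodimer, and the ubiquitin ligase MYLIP, which marks the LDL receptor for degradation. The liver both makes cholesterol for the body and sends the excess into bile.

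Library totals ran from 28.3 M to 48.2 M (mega) estimated counts. Hepatocyte markers dominated in every liver, with albumin (Alb) at 38215 to 78568 CPM in emodin livers and 72639 to 100479 CPM in vehicle livers. Alb itself was lower in emodin livers (log2 fold change -0.50, edgeR adjusted p = 0.0309). The hepatocyte markers Apoa1, Ttr, Tat and Cps1 did not pass the same test. CPM is a gene's count in a library brought to 1000000 counts, after TMM scaling, a correction for library composition. Emodin 4, 5 and 8 had the lowest quality weights in limma's array-weight model (0.376, 0.455 and 0.276, against 0.714 to 1.94 in the other libraries), and calls that change without them are given both ways. The macrophage receptor gene Marco was at 54.0, 72.7 and 60.7 CPM in emodin 4, 5 and 8, against 5.64 to 9.11 CPM in the other emodin livers. In vehicle livers it was at 64.6 CPM in vehicle 4, against 3.79 to 11.5 CPM in the other 7. The 6 Kupffer cell markers, Marco among them, summed to 153 to 450 CPM in emodin livers and 103 to 466 CPM in vehicle livers, and 0 of the 6 passed the test. Not all of the other markers followed Marco in emodin 8, which was the lowest emodin liver for Clec4f, Vsig4 and Adgre1 (56.2, 11.8 and 5.83 CPM). Cd5l did, at 123, 156 and 83.3 CPM in emodin 4, 5 and 8, against 53.1 to 80.4 CPM in the other emodin livers. Timd4 was at 5.45 CPM in emodin 8, within the 4.55 to 6.73 CPM of emodin 1, 2, 3, 6 and 7. Emodin 5 was the highest emodin liver for each of the 6. The 5 biliary markers summed to 33.6 to 173 CPM in emodin livers and 37.7 to 65.9 CPM in vehicle livers. Of these, Sox9 was at 14.2 and 20.1 CPM in emodin 4 and 8, and at most 8.18 CPM in any other liver. Spp1, the most abundant of the 5, was at 154 and 95.5 CPM in emodin 4 and 8, and at most 57.4 CPM elsewhere. Krt7 was also above every vehicle liver in both, at under 1 CPM. Krt19 in both (1.01 and 0.713 CPM) and Epcam in emodin 8 (0.968 CPM) were within the vehicle range, and Epcam in emodin 4 (2.87 CPM) was above it. None of the 5 passed the test. The part of these cell types in the results below was not tested. In whole liver RNA, fewer cells of a type and less RNA per cell cannot be told apart.

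Of the 32 cholesterol genes, 4 fell and 1 rose with emodin. Sc5d, an enzyme near the end of the pathway, Stard4, a carrier of cholesterol inside the cell, Scap and Acat2 were lower in emodin livers. Nr1h3, which encodes LXRα, was slightly higher. The other 27 did not pass edgeR's quasi-likelihood test at an adjusted p of 0.05 (Benjamini-Hochberg over all 14308 tested entries). A share of 15.6% of the 32 genes passed, close to the 13.2% of all tested entries. By direction the background was 5.47% of entries lower and 7.70% higher. The log2 fold change (emodin over vehicle) was below 0 for 25 of the 32 genes and for 48.4% of all tested entries, and its median was -0.16 for the 32 genes and 0.01 for all entries. Without emodin 4, 5 and 8 the median was -0.24, with 28 of the 32 genes below 0, 5 called lower and 0 higher. In that setting, added after seeing the data, the median of all entries was -0.002, with 584 called lower and 734 higher. The pathway as a set was not tested.

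**Figure D1:**
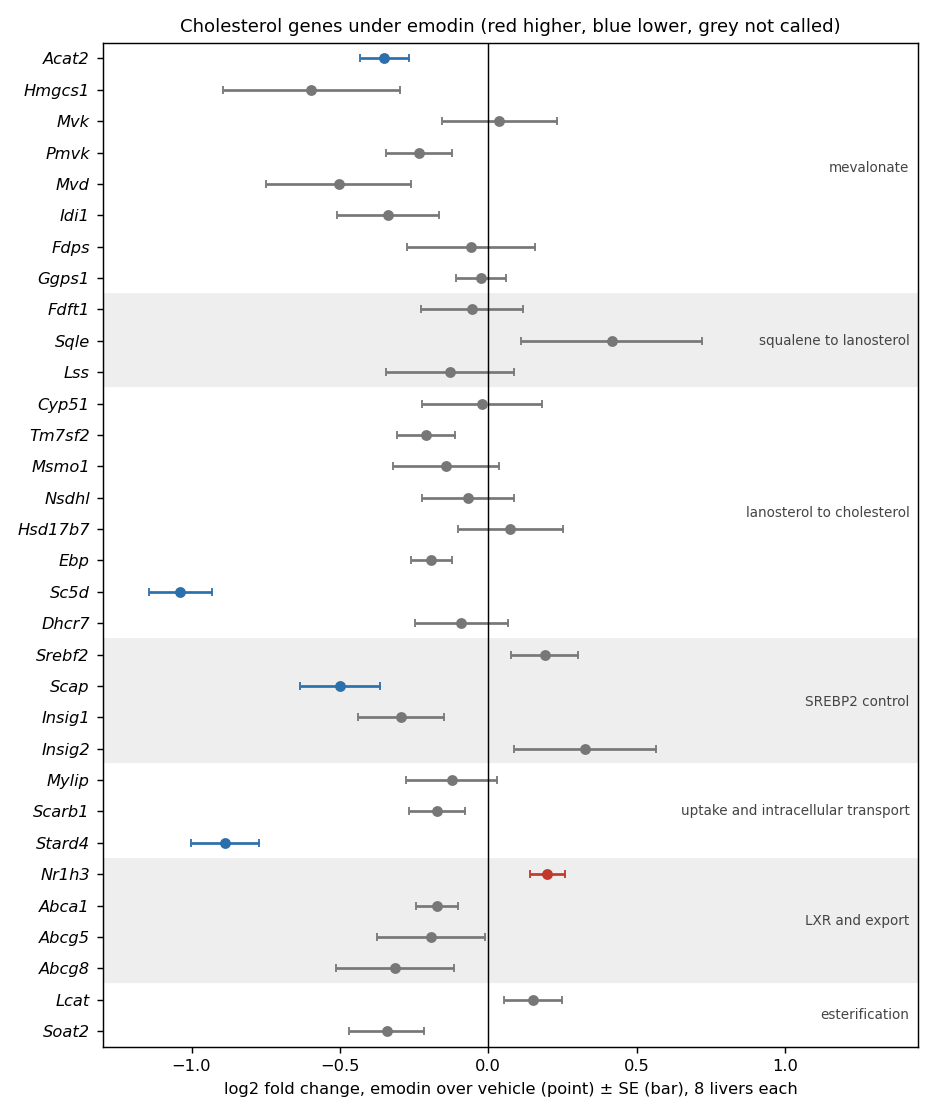
Log2 fold change of each of the 32 cholesterol genes, emodin over vehicle (point), with its SE (bar) from edgeR over 8 emodin and 8 vehicle livers. Genes run down the page by role, and coloured points passed an adjusted p of 0.05. Sc5d (-1.04) and Stard4 (-0.89) stand clear of the other 30 genes, which lie between -0.60 and 0.42.

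Among the 8 genes of the mevalonate branch, 1 fell and 7 did not pass. Acat2, the cytosolic acetoacetyl-CoA thiolase that condenses acetyl-CoA at the start of the branch, ran from 61.2 to 86.3 CPM in emodin livers (median 73.7), against 77.4 to 114 CPM in vehicle livers (median 91.8). The groups overlapped, with 6 of 8 emodin livers below every vehicle liver. Its log2 fold change was -0.35 ± 0.08 (SE, n = 8 per group; edgeR adjusted p = 0.0123). Acat2 lies on chromosome 17 from 12942890 to 12960747 (mm10).

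Hmgcs1, the synthase that makes HMG-CoA, had an SD of log2 CPM of 0.725 in emodin livers and 0.478 in vehicle livers, where Mvd alone of the mevalonate genes varied more (0.586). Its levels were 161, 179, 121, 408, 180, 106, 113 and 348 CPM in emodin livers 1 to 8, against 317, 270, 192, 541, 193, 322, 277 and 330 CPM in vehicle livers 1 to 8. Emodin 4 and 8 were within the vehicle range, and the other 6 emodin livers were below every vehicle liver. On the log2 scale the difference was -0.60 ± 0.30 (edgeR adjusted p = 0.191), which did not pass. When emodin 4, 5 and 8 were left out it was -1.16 (edgeR adjusted p = 0.0119), and with array weights -0.93 (limma adjusted p = 0.021).

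The other mevalonate genes did not pass. Mvd, which decarboxylates mevalonate diphosphate, had 4.08 to 9.69 CPM in emodin livers (median 4.84), against 3.75 to 11.3 CPM in vehicle livers (median 8.62), and its log2 fold change was -0.50 ± 0.24 (edgeR adjusted p = 0.175). Pmvk, the phosphomevalonate kinase, had 22.7 to 36.0 CPM in emodin livers and 23.6 to 38.3 CPM in vehicle livers (-0.23 ± 0.11, edgeR adjusted p = 0.166). It passed without emodin 1 (-0.31, adjusted p = 0.0478). The levels of both groups overlapped widely for each.

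Idi1, the isomerase of the isoprenyl units, had 89.5 to 212 CPM in emodin livers and 134 to 254 CPM in vehicle livers (log2 fold change -0.34 ± 0.17, edgeR adjusted p = 0.201). Idi1 passed when emodin 4, 5 and 8 were left out, at -0.61 (adjusted p = 0.0256), and with array weights at -0.48 (limma adjusted p = 0.0474). Mvk (mevalonate kinase), Fdps (farnesyl diphosphate synthase) and Ggps1 (geranylgeranyl diphosphate synthase) had log2 fold changes of 0.04 ± 0.19, -0.06 ± 0.22 and -0.02 ± 0.08, each of which turned sign in at least 1 alternative.

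None of the 3 genes from the synthesis of squalene to lanosterol passed in edgeR (0 of 3 at an unadjusted p under 0.05, and 0 in DESeq2). Sqle, the squalene epoxidase and a main control point of the pathway, had 50.6, 74.3, 45.2, 156, 79.7, 52.2, 47.6 and 169 CPM in emodin livers 1 to 8, against 39.7 to 97.5 CPM in vehicle livers (median 58.3). Emodin 4 and 8 were above every vehicle liver and the other 6 within the vehicle range. Sqle had the highest log2 fold change of the 32 genes, 0.42 ± 0.31 (edgeR adjusted p = 0.388), which did not pass, and it was -0.22 without emodin 4, 5 and 8. Fdft1 (squalene synthase) and Lss (lanosterol synthase) had -0.06 ± 0.17 and -0.13 ± 0.22.

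Of the 8 genes between lanosterol and cholesterol, 1 fell and 7 did not pass. Sc5d encodes lathosterol oxidase, which forms the substrate of Dhcr7 in the last steps of the pathway. Its levels were 379, 266, 341, 247, 284, 287, 281 and 267 CPM in emodin livers 1 to 8, against 646, 621, 529, 773, 509, 519, 601 and 629 CPM in vehicle livers 1 to 8. The groups did not overlap: the highest emodin liver lay below the lowest vehicle liver, as was so for 1.03% of all tested entries. Its log2 fold change was -1.04 ± 0.11 (edgeR adjusted p = 4.81e-05), and it stayed between -1.10 and -0.94 in every alternative run. Per kilobase of its longest principal transcript, Sc5d averaged 61.4 CPM in emodin livers and 126 CPM in vehicle livers.

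The promoters of the enzymes that fell, Sc5d and Acat2, are shown beside that of Hmgcs1, which did not pass but is the single gene here whose window holds the sterol regulatory element searched for. Each window is taken from RefSeq (GRCm38.p6) and runs from 250 bases before to 50 bases after the start site of that table, 5′ to 3′ in the direction of the gene. GENCODE M21 starts Sc5d 44 bases and Hmgcs1 28 bases further downstream, and Acat2 22 bases further upstream. Sc5d is at chr9:42264251-42264550 on the minus strand, Acat2 at chr17:12960676-12960975 on the minus strand, and Hmgcs1 at chr13:119690101-119690400 on the plus strand. Capitals mark TCACNCCAC, the sterol regulatory element with any base at its middle, and CCAAT, the core bound by NF-Y, which appears as ATTGG on the other strand.
Sc5d: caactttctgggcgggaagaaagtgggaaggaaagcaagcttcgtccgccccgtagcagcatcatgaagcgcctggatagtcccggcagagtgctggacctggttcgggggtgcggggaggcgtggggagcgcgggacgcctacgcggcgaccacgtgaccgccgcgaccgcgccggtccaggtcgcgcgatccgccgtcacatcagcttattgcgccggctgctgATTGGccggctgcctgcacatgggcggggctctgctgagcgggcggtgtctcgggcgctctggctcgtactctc
Acat2: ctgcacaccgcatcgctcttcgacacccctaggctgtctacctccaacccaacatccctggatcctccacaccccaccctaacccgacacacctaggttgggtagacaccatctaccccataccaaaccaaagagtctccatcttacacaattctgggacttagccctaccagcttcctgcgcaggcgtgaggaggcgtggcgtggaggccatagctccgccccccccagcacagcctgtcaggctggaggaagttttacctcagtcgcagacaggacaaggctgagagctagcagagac
Hmgcs1: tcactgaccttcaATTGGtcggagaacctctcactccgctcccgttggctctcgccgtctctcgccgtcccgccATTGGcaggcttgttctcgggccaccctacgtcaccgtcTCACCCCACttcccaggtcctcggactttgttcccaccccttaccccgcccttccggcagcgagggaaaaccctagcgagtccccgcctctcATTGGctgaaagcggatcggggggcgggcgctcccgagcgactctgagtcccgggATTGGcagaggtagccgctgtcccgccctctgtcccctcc
In Hmgcs1 the element TCACCCCAC starts 137 bases before the RefSeq start site, and ATTGG occurs 4 times in the window. Sc5d holds ATTGG once, 24 bases before the RefSeq start site, and Acat2 holds neither motif.

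Promoter windows were found for 26 of the 32 genes. On either strand, CCAAT was present in 22 of these 26 (84.6%) and in 41.1% of the 27025 genes with a window. TCACCCCAC was present in 1 of the 26 and in 0.614% of all genes, and TCACNCCAC in the same gene and in 1.44% of all genes. The LXR element of the DR4 type, AGGTCA repeated after any 4 bases, was in 0 of the 26 windows and in 4 of all 27025 genes. These matches describe letters in short windows and not binding.

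Neither enzyme next to Sc5d in the pathway passed the test. Ebp, the isomerase that feeds Sc5d, had 126 to 164 CPM in emodin livers (median 138), against 150 to 178 CPM in vehicle livers (median 159). Of the emodin livers 5 of 8 were below every vehicle liver, and the log2 fold change of -0.19 ± 0.07 did not pass (edgeR adjusted p = 0.074). It passed in DESeq2 (adjusted p = 0.0334) and without emodin 7 (-0.22, edgeR adjusted p = 0.0331). Dhcr7, the final reductase, had 46.9 to 95.5 CPM in emodin livers and 50.9 to 96.1 CPM in vehicle livers (-0.09 ± 0.16, edgeR adjusted p = 0.742).

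Tm7sf2, a sterol reductase that acts after Cyp51, had 62.6 to 103 CPM in emodin livers and 82.6 to 110 CPM in vehicle livers (log2 fold change -0.21 ± 0.10, edgeR adjusted p = 0.165). It was lowest in emodin 4 and 8 (68.5 and 62.6 CPM). Cyp51, the lanosterol demethylase, had -0.02 ± 0.20, with 116 to 291 CPM in emodin livers and 123 to 232 CPM in vehicle livers. Msmo1, Nsdhl and Hsd17b7, which together remove the methyl groups at carbon 4, had -0.14 ± 0.18, -0.07 ± 0.15 and 0.07 ± 0.18.

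The enzyme genes varied together from liver to liver within each group. The mean of log2 CPM relative to the vehicle mean, taken over the 19 enzyme genes, was -0.21, -0.32, -0.35, 0.22, -0.34, -0.54, -0.44 and 0.27 in emodin livers 1 to 8. In vehicle livers 1 to 8 it was 0.07, -0.08, -0.38, 0.44, -0.31, 0.10, -0.04 and 0.20. Among vehicle livers, vehicle 4 had the highest level of 16 of the 19 genes. Among emodin livers, emodin 4 and 8 were both above the other 6 for 13 of the 19. The exceptions were Acat2, Pmvk, Ggps1, Tm7sf2, Ebp and Sc5d, and Sc5d was lowest of all in emodin 4, at 247 CPM. The SD of log2 CPM between livers was larger in the emodin group for 14 of the 19 genes. The omission of emodin 4, 5 and 8 was added after seeing the data. It removed emodin 4 and 8, the emodin livers of highest mean, and emodin 5, whose mean was -0.34. It kept vehicle 4, the highest of the vehicle livers. All 19 log2 fold changes were then below 0 (median -0.32, against -0.13 with all livers), and 4 passed, namely Acat2, Hmgcs1, Idi1 and Sc5d. Mvd then had -0.81 (edgeR adjusted p = 0.0505), Lss -0.46, Msmo1 -0.42, Cyp51 -0.40, Fdps and Fdft1 -0.32 each, Dhcr7 -0.28 and Nsdhl -0.20, while Ebp and Tm7sf2 had -0.11 and -0.07, and none of these passed. With vehicle 4 alone left out, Lss, Dhcr7, Cyp51, Fdps and Fdft1 were instead at 0.016, 0.021, 0.050, 0.033 and 0.013. The other enzyme genes kept their sign in that setting. The counts and means over the 19 genes are descriptions of genes that share libraries, with no test.

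**Figure D2:**
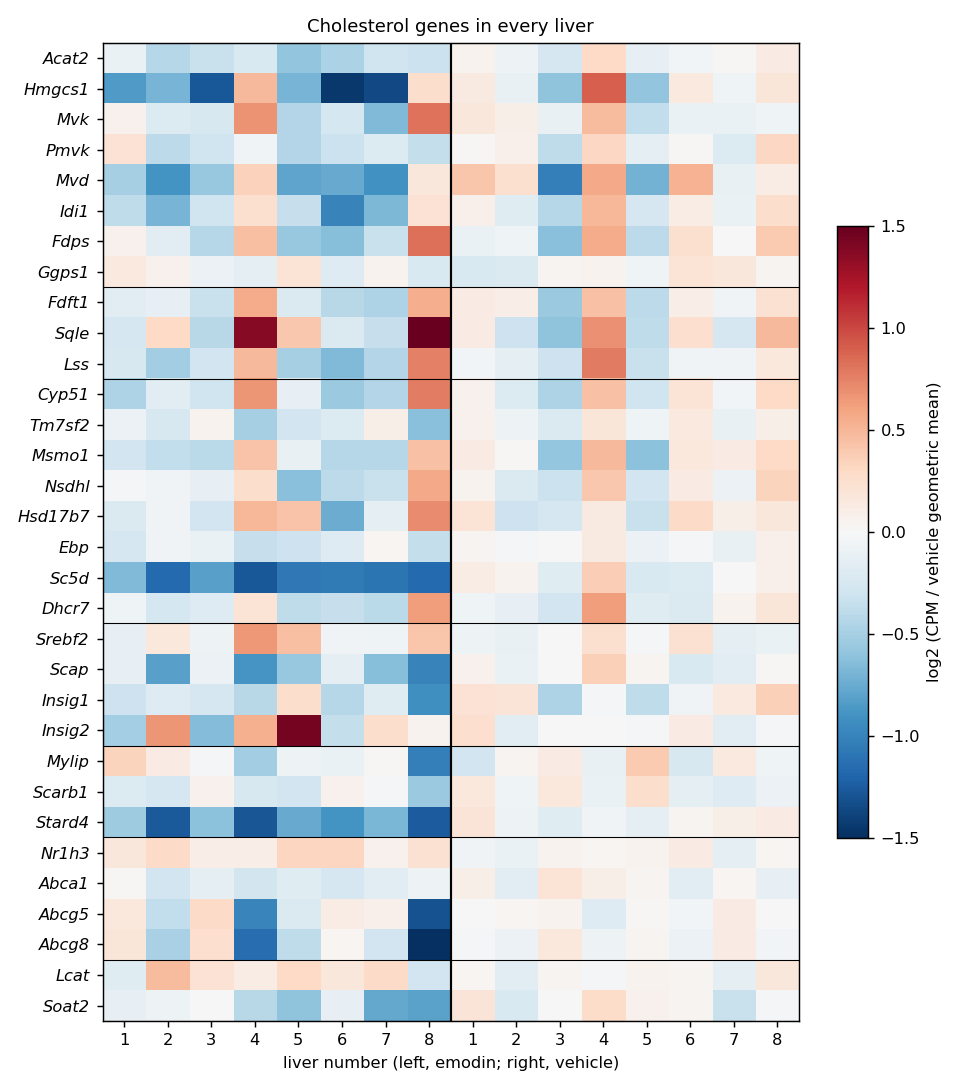
Level of each of the 32 cholesterol genes in every liver, as log2 of CPM over the vehicle geometric mean, with emodin livers 1 to 8 on the left and vehicle livers 1 to 8 on the right (colours saturate at 1.5). Sc5d and Stard4 are low in all 8 emodin livers, while most other enzymes are high in emodin 4 and 8 and in vehicle 4, and Abcg5 and Abcg8 are lowest in emodin 4 and 8.

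Of the 4 genes that control SREBP2, 1 fell and 3 did not pass. Scap, the escort protein, had 83.3, 51.8, 85.5, 49.3, 61.6, 82.5, 58.6 and 45.5 CPM in emodin livers 1 to 8, against 77.9 to 116 CPM in vehicle livers (median 91.7). Emodin 1, 3 and 6 were within the vehicle range and the other 5 below every vehicle liver. Scap changed by -0.50 ± 0.14 on the log2 scale (edgeR adjusted p = 0.0233). With emodin 4, 5 and 8 left out the value was -0.34 and did not pass (adjusted p = 0.116). Scap lies on chromosome 9 from 110333288 to 110384950.

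Srebf2, which encodes SREBP2 itself, had 28.0 to 47.8 CPM in emodin livers (median 31.8), against 27.5 to 35.9 CPM in vehicle livers (median 29.4). Its 3 highest livers were emodin 4, 5 and 8, each above every vehicle liver, and the log2 fold change of 0.19 ± 0.11 did not pass (edgeR adjusted p = 0.273). Without those 3 livers it was -0.03.

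The retention proteins differed in sign and neither passed. Insig1, itself an SREBP2 target, had 120 to 272 CPM in emodin livers and 164 to 290 CPM in vehicle livers (log2 fold change -0.29 ± 0.14, edgeR adjusted p = 0.181). Insig2, whose liver transcript is known to respond to insulin rather than sterols, had 85.5, 192, 77.5, 176, 328, 95.0, 146 and 126 CPM in emodin livers 1 to 8, against 108 to 144 CPM in vehicle livers. Emodin 2, 4, 5 and 7 were above every vehicle liver and emodin 1, 3 and 6 below every vehicle liver. Its log2 fold change was 0.33 ± 0.24 (edgeR adjusted p = 0.386), and -0.03 without emodin 4, 5 and 8. The SD of log2 CPM was 0.696 in emodin livers and 0.138 in vehicle livers.

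Stard4, a soluble START-domain protein that moves cholesterol between membranes and an SREBP2 target, was the second gene without overlap between the groups. Its levels were 98.1, 59.4, 92.5, 58.4, 83.8, 76.2, 88.6 and 59.9 CPM in emodin livers 1 to 8, against 163, 134, 125, 136, 130, 146, 151 and 155 CPM in vehicle livers 1 to 8. Every emodin liver was below every vehicle liver, with emodin 2, 4 and 8 lowest. Such a separation was seen for 2 of the 32 genes and for 1.03% of all tested entries. Stard4 changed by -0.89 ± 0.11 on the log2 scale (edgeR adjusted p = 0.000256), and it lay between -0.94 and -0.78 in every alternative run. Stard4 lies on chromosome 18 from 33199355 to 33213862.

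The uptake genes did not pass. Mylip had 4.99 to 12.8 CPM in emodin livers and 8.28 to 13.3 CPM in vehicle livers (log2 fold change -0.12 ± 0.15, edgeR adjusted p = 0.628). Scarb1, the receptor through which hepatocytes take cholesterol from HDL, had 74.8 to 115 CPM in emodin livers and 96.0 to 132 CPM in vehicle livers. Of the emodin livers 5 were below every vehicle liver, and the log2 fold change was -0.17 ± 0.09 (edgeR adjusted p = 0.231), or -0.07 without emodin 4, 5 and 8.

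**Figure D3:**
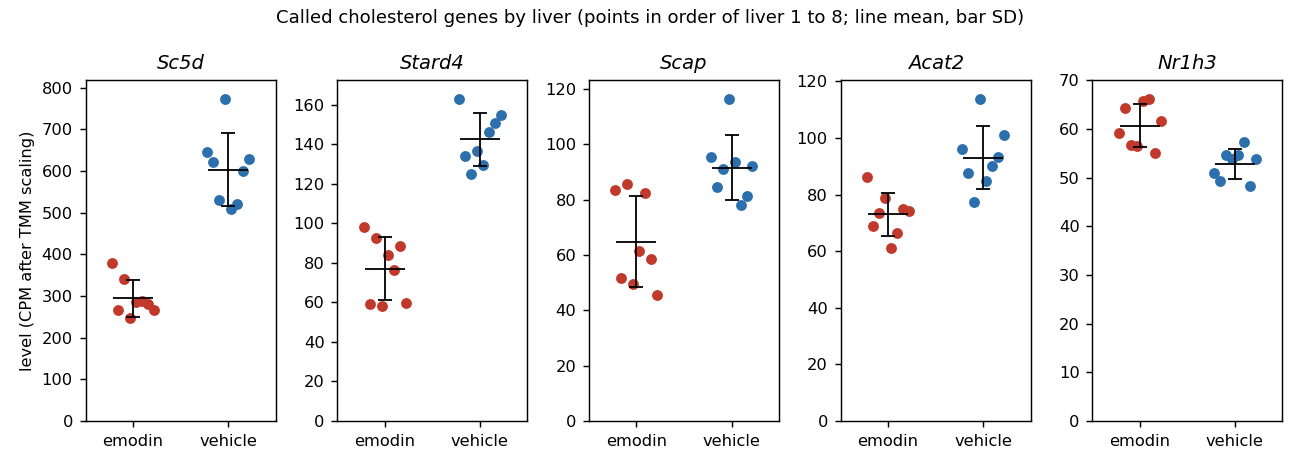
CPM of the 5 cholesterol genes that passed, by liver (points, in order of liver number within a group), with the mean (line) and SD (bar) of 8 livers, emodin left and vehicle right. Sc5d and Stard4 show no overlap, Scap and Acat2 overlap in part, and Nr1h3 is 60.6 ± 4.44 CPM in emodin livers and 52.8 ± 3.07 CPM in vehicle livers.

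Of the 4 genes of LXR and export, 1 rose and 3 did not pass. Nr1h3 (LXRα) had 59.2, 64.2, 56.6, 56.4, 65.7, 66.1, 55.0 and 61.7 CPM in emodin livers 1 to 8, against 48.2 to 57.3 CPM in vehicle livers (median 53.8). Of the emodin livers 5 were above every vehicle liver and 3 within the vehicle range. Nr1h3 changed by 0.20 ± 0.06 on the log2 scale (edgeR adjusted p = 0.0327). The call was lost without emodin 2 (0.19), emodin 5 (0.18), vehicle 1 (0.20), vehicle 2 (0.18) or vehicle 7 (0.18), without emodin 4, 5 and 8 together (0.19, adjusted p = 0.0597), and with no filter on low counts (0.21, adjusted p = 0.0589).

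None of the LXR targets among the 32 genes passed in edgeR or in DESeq2. Abca1, which loads cholesterol onto apolipoprotein A-I, had 110 to 137 CPM in emodin livers (median 120), against 121 to 156 CPM in vehicle livers (median 139). The log2 fold change was -0.17 ± 0.07 (unadjusted p = 0.0238, edgeR adjusted p = 0.108), which did not pass.

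Abcg5 and Abcg8, which together pump sterols into bile, were spread widely among emodin livers and did not pass. Abcg5 had 108, 75.5, 119, 49.2, 83.7, 105, 102 and 39.2 CPM in emodin livers 1 to 8, against 85.0 to 106 CPM in vehicle livers. Abcg8 had 125, 78.7, 131, 50.2, 85.1, 113, 90.8 and 37.6 CPM in emodin livers 1 to 8, against 104 to 123 CPM in vehicle livers. Emodin 4 and 8, the livers with the highest sterol enzyme levels of their group, had the lowest levels of both, and emodin 1 and 3 were above every vehicle liver for both. The log2 fold changes were -0.19 ± 0.18 and -0.31 ± 0.20 (edgeR adjusted p = 0.505 and 0.309), and 0.07 and -0.03 without emodin 4, 5 and 8. The SD of log2 CPM of Abcg5 was 0.581 in emodin livers and 0.0923 in vehicle livers, and that of Abcg8 was 0.637 and 0.0976 in the same groups. The 2 genes overlap on opposite strands of chromosome 17, so reads of the overlap could not be assigned to either without strand information.

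The acyltransferase genes did not pass. Soat2, which makes cholesteryl esters inside hepatocytes, had 21.8 to 38.2 CPM in emodin livers (median 31.6), against 30.1 to 46.0 CPM in vehicle livers (median 38.4). The log2 fold change was -0.34 ± 0.13 (edgeR adjusted p = 0.08), which passed without emodin 3 (-0.39, adjusted p = 0.0431) and was -0.20 without emodin 4, 5 and 8. Lcat, a secreted enzyme that esterifies cholesterol on HDL, had 197 to 333 CPM in emodin livers and 215 to 270 CPM in vehicle livers (0.15 ± 0.10, edgeR adjusted p = 0.322). Per kilobase of transcript Lcat had the highest level of the 32 genes, 200 CPM in emodin livers and 180 CPM in vehicle livers.

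Ratios of paired genes within a liver do not depend on scaling. The 6 pairs were chosen after values had been seen, so their ratios are given as a description, with no test. The Sc5d to Ebp ratio was 1.71 to 2.79 in emodin livers (median 2.08), against 3.28 to 4.35 in vehicle livers (median 3.79). The Sc5d to Dhcr7 ratio was 2.80 to 6.39 in emodin livers, against 8.04 to 10.9 in vehicle livers. Neither ratio overlapped between the groups, and the differences in mean log2 ratio were -0.84 ± 0.10 and -0.93 ± 0.17 (SE).

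The Scap to Srebf2 ratio was 1.03 to 2.97 in emodin livers (median 1.75), against 2.18 to 3.29 in vehicle livers (median 3.06). It was below every vehicle liver in 5 of 8 emodin livers, and the difference was -0.70 ± 0.23 on the log2 scale, or -0.33 without emodin 4, 5 and 8. The Abcg8 to Abcg5 ratio was 0.886 to 1.15 in emodin livers and 1.04 to 1.23 in vehicle livers, a difference of -0.14 ± 0.05. The Insig2 to Insig1 ratio differed by 0.48 ± 0.24 with all livers and by 0.15 without emodin 4, 5 and 8. The Stard4 to Hmgcs1 ratio differed by -0.21 ± 0.38 with all livers and by 0.33 without those 3.

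**Figure D4:**
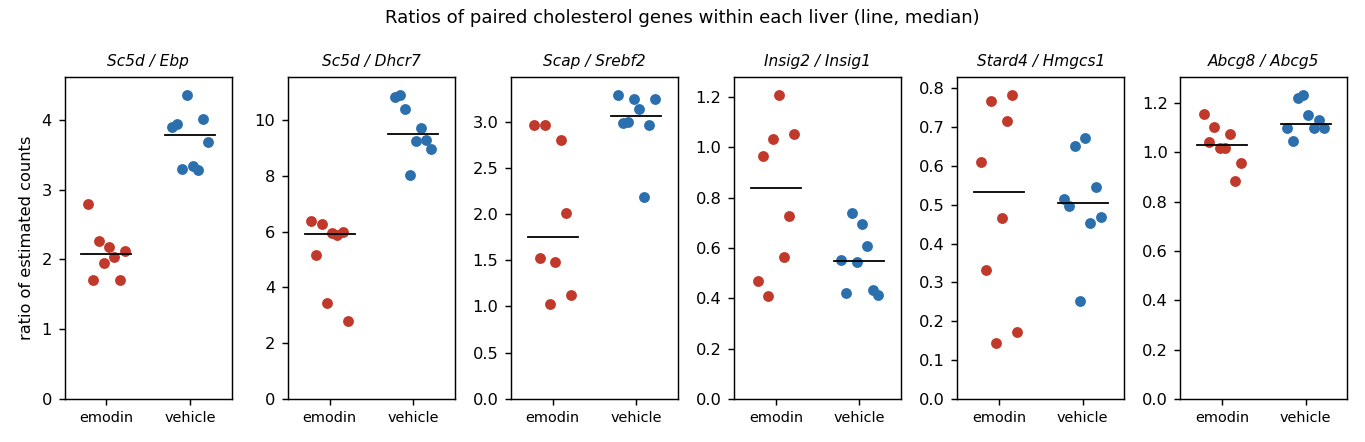
Ratio of estimated counts of 6 gene pairs in each liver (points, in order of liver number within a group), with the median (line), emodin left and vehicle right. The Sc5d to Ebp and Sc5d to Dhcr7 ratios separate the groups, and the other 4 overlap.

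A further 52 genes that neighbour the pathway were listed, of which 51 were tested, 9 fell, 3 rose and 39 did not pass (23.5% passed, against 13.2% of all entries). The lists were drawn up with earlier results of these data known. This share, and those of the separate lists below, are descriptions with no test. Among partners of synthesis, Por, the reductase that passes electrons to Cyp51 and other P450 enzymes, rose to 579 ± 144 CPM in emodin livers, against 296 ± 85.8 CPM in vehicle livers (SD, n = 8 each). The log2 fold change was 0.97 ± 0.19 (edgeR adjusted p = 0.00536). Por was 351 to 706 CPM in emodin livers and 178 to 438 CPM in vehicle livers, with emodin 4 and 8 (355 and 351 CPM) within the vehicle range and the other 6 above it.

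Cyb5b, a cytochrome b5, fell to 289 ± 51.3 CPM in emodin livers, against 451 ± 37.9 CPM in vehicle livers, with no overlap (-0.64 ± 0.11, edgeR adjusted p = 0.0014). All 8 emodin livers were below every vehicle liver for 2 of the 51 tested neighbours, Cyb5b and Lipa, and for 1.03% of all tested entries. Erg28, which tethers sterol enzymes together in yeast, fell by 0.29 ± 0.07 on the log2 scale (edgeR adjusted p = 0.018), a call lost with total counts as scaling (-0.26, adjusted p = 0.0967). Acat1, the mitochondrial thiolase, and Pdss2, a subunit of the enzyme that makes the ubiquinone side chain, fell by 0.34 ± 0.10 and 0.40 ± 0.10 (edgeR adjusted p = 0.031 and 0.0164). Without emodin 4, 5 and 8 these were -0.27 and -0.33, and neither passed.

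Among 7 other SREBP2-responsive genes 3 fell and 0 rose (42.9% passed, against 13.2% of all entries). Rdh11, a retinol dehydrogenase, had -0.57 ± 0.14, Mmab, a cobalamin enzyme encoded next to Mvk, -0.44 ± 0.10, and Acss2, which makes acetyl-CoA from acetate, -0.71 ± 0.20 (edgeR adjusted p = 0.0136, 0.00928 and 0.029). Acss2 did not pass without emodin 4, 5 and 8 (-0.44).

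In the lysosomal and transport list 2 of 15 fell and 0 rose (13.3% passed, close to the 13.2% of all entries). Lipa, the lysosomal lipase that frees cholesterol from LDL-borne esters, fell to 118 ± 13.7 CPM in emodin livers, against 170 ± 15.8 CPM in vehicle livers, with no overlap (-0.53 ± 0.08, edgeR adjusted p = 0.000867). Gramd1c, of the family that carries sterol from the plasma membrane, had -0.27 ± 0.08 (edgeR adjusted p = 0.0298), and -0.20 without emodin 4, 5 and 8, where it did not pass.

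Of 9 genes of SREBP processing and sterol-regulated degradation 2 rose and 0 fell (22.2% passed, against 13.2% of all entries). Rnf139, a ubiquitin ligase of the endoplasmic reticulum that binds INSIG proteins, had 42.6 to 49.3 CPM in emodin livers and 33.1 to 41.8 CPM in vehicle livers. All 8 emodin livers were above every vehicle liver, as was so for 0.937% of all entries (0.27 ± 0.06, edgeR adjusted p = 0.0069). Ufd1, a cofactor that helps pull ubiquitylated proteins from the membrane, had 0.20 ± 0.06 (edgeR adjusted p = 0.0471).

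Single livers decided some of these calls, while the direction held. Acat1 did not pass without any 1 of emodin 2, 4 or 5 or vehicle 1, 3, 6, 7 or 8, and its value stayed between -0.40 and -0.31. Acss2 did not pass without emodin 2, 4 or 5 or vehicle 4 or 8 (-0.86 to -0.62), and Gramd1c without emodin 2, 3, 4 or 5 or vehicle 7 or 8 (-0.31 to -0.24). Ufd1 passed only when none of the livers, or emodin 1, 3, 6 or 7 or vehicle 6, was left out (0.17 to 0.22), and its call was also lost with RLE or total counts as scaling (0.19 and 0.23), array weights (0.14), no filter (0.20) or Ensembl entries only (0.18). Without emodin 4, 5 and 8 Ufd1 had 0.13 (edgeR adjusted p = 0.208). Array weights also ended the calls of Acat1 (-0.28) and Acss2 (-0.54), and no filter that of Gramd1c (-0.26). The ranges cover each of the 16 livers left out. Of the 10 LXR partners and LXR-responsive genes, 0 passed in edgeR or in DESeq2, and 1 had an unadjusted p under 0.05 in edgeR.

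**Figure D5:**
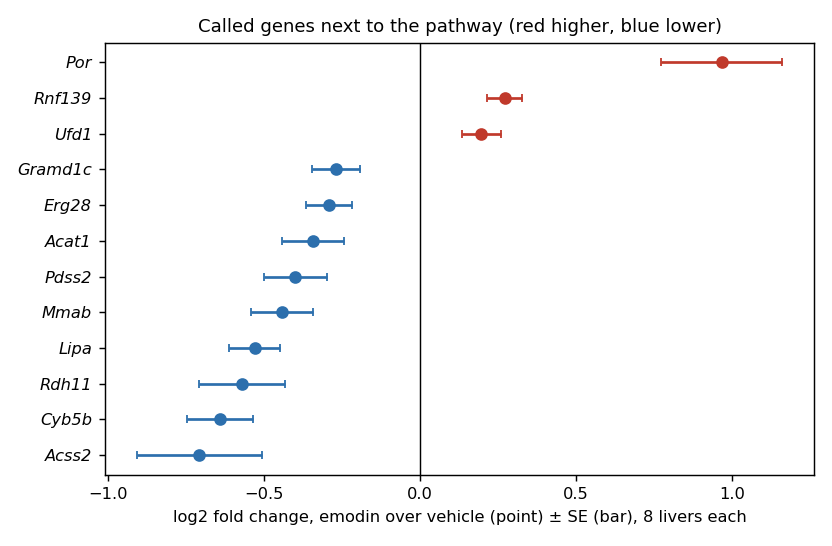
Log2 fold change, emodin over vehicle (point), with SE (bar), of the 12 genes next to the pathway that passed an adjusted p of 0.05 in edgeR, 8 livers per group. Por has the largest rise (0.97) and Acss2 the largest fall (-0.71) of the 12.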

How the data were processed

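Total RNA of mouse livers was sequenced. The authors deposited a table of estimated counts: its values are whole (0 were not), with no scaling for depth or length, although the file is named for FPKM. The submitters' processing notes name Cufflinks 2.2.1, cutadapt 1.9.1, SAMtools 0.1.19, HISAT2, HTSeq 0.6.1 and the build mm10. Their roles, the annotation and the use of strand are not given in the sources used here. The value 2 was commoner than 1 in every column, so a value of 1 need not be 1 read. All 16 columns matched sample titles (0 were left aside).

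Entries were filtered with filterByExpr, scaled by TMM and fitted with edgeR 4.0.16 in R 4.3.3 (robust quasi-likelihood, group only) over all 14308 tested entries. The SE is the absolute log2 fold change over the square root of F. Rounding for the count model changed nothing. Within groups, pairs of libraries differed by more than counting noise (chi-square per gene at least 17.1), so none was taken as a duplicate. Coordinates and principal transcript lengths are from GENCODE M21 (mm10); reads of overlapping genes (Fdft1 with Ctsb, Cyp51 with Akap9, Tm7sf2 with Vps51, Ggps1 with Arid4b) could be shared. The genes that passed, the 5 others of smallest p and the 3 of largest change were given full values by rule. The genes, lists and tests were chosen with earlier results of these data known, and the within-liver ratios, which were not tested, after seeing values. Alternatives were other scalings, DESeq2 1.42.0, limma 3.58.1 with array weights, no filter, Ensembl entries only, a replicate block, each liver left out, and, added after seeing the data, leaving out the livers of array weight under 0.5. Protein sequences were not used here.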

Additional observations from a re-analysis of the deposited data

Results flagged for a closer look

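A liver far from the other 7 of its group was found in 6 of 76 checks of a gene or ratio within a group, where chance gives about 1 in 20. Vehicle 4 was the highest of the vehicle livers by a wide gap for Hmgcs1 (541 CPM), Lss (54.6 CPM), Dhcr7 (96.1 CPM) and Scap (116 CPM). Emodin 5 was the highest of the emodin livers for Insig2 (328 CPM). Vehicle 6 had the lowest Scap to Srebf2 ratio of the vehicle livers (2.18). The cause of each was not tested.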

How the results depend on the processing

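Sc5d, Stard4 and Acat2 were called lower in every alternative run, Scap in all but the omission of emodin 4, 5 and 8. Over the 16 left-out livers, 0 to 1 of the 32 genes were higher and 4 to 5 lower, and over all entries 709 to 1333 higher and 521 to 903 lower. The count of higher genes among the 32 was 0 with no filter, with the replicate block and without emodin 4, 5 and 8. The replicate numbers do not pair the samples (correlations of same-numbered livers from -0.15 to 0.25, with 2 of 8 emodin livers closest to their own number). With the replicate block 628 entries were higher, Hmgcs1 passed (-0.69), and Nr1h3, Ufd1 and Acss2 did not (0.20, 0.19 and -0.77). Without emodin 4, 5 and 8, 734 entries were higher, and of the genes next to the pathway 4 were higher and 5 lower. As Ufd1 was lost there, the 4 higher ones included genes that did not pass with all livers. In that last setting the log2 ratio differences of Scap to Srebf2, Insig2 to Insig1, Stard4 to Hmgcs1 and Abcg8 to Abcg5 were -0.33, 0.15, 0.33 and -0.11. With each liver left out in turn, the Insig2 to Insig1 difference ran from 0.38 to 0.60 and the Stard4 to Hmgcs1 difference from -0.35 to 0.0088.

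Some genes that did not pass turned sign. Array weights gave -0.12 for Mvk, -0.0048 for Sqle, -0.18 for Hsd17b7 and -0.053 for Insig2. The replicate block gave -0.031 for Mvk. Without emodin 4, 5 and 8 the values were -0.26 for Mvk, -0.22 for Sqle, -0.28 for Hsd17b7, -0.030 for Srebf2, -0.032 for Insig2, 0.070 for Mylip and 0.070 for Abcg5. Total counts as scaling gave 0.0096 for Fdps, 0.0043 for Ggps1, 0.0044 for Fdft1 and 0.050 for Cyp51. Over left-out livers the ranges were -0.11 to 0.12 for Mvk, -0.23 to 0.033 for Fdps, -0.057 to 0.011 for Ggps1, -0.16 to 0.013 for Fdft1, -0.30 to 0.016 for Lss, -0.17 to 0.055 for Cyp51, -0.039 to 0.17 for Hsd17b7 and -0.22 to 0.021 for Dhcr7. The cause of these changes was not tested.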
